A study of Mus musculus with 24 samples.

Results

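Gm16867, Gm27177, Gm20236, Gm37094, Gm38378, Gm37513, Entpd4 and Entpd4b are annotated genes of chromosome 14, and 8 of the 54752 genes in the deposited bone marrow table. They were chosen by their Ensembl identifiers and their place in 1 stretch of 405.686 kb of mm10, as a cluster with higher RNA levels in Nrf2-KO than in wild-type mice. The values that chose them are therefore those of the genotype comparison. It is given below as a description, in which calls are counted but nothing is read from them. Flight against ground was not used in the choice and was tested, though the same libraries enter both comparisons.

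RNA-seq was done on bone marrow cells of 24 male mice of C57BL/6 background, with 1 library from each mouse. There were 6 wild-type ground controls (GC-WT), 6 wild-type flight mice (FL-WT), 6 Nrf2-KO ground controls (GC-KO) and 6 Nrf2-KO flight mice (FL-KO). FL mice stayed at the International Space Station for 31 days and GC mice lived on the ground in matching single cages. FL mice were sampled after their return to the ground, not in space, and at another place than the GC mice. Below, flight means the FL groups, in which spaceflight, landing and place of sampling cannot be told apart. The FL mice were 8 weeks old when they were shipped, 3 weeks before launch. KO mice lack Nrf2, a transcription factor of the response to oxidative stress, in the whole body, and nothing in the sources used here describes chromosome 14 of this line. Nfe2l2, the gene of Nrf2, lay at 17.05 to 26.06 TPM in the wild-type mice on the ground and 11.39 to 27.26 TPM in those of the flight, and at 3.6 to 7.18 TPM and 2.22 to 4.31 TPM in the KO mice, so no library went against its genotype label. TPM are read numbers divided by transcript length and scaled to a fixed sum in each library. No counts are in the table, so the depth is unknown and counting error has no interval here. Markers of erythroid cells, neutrophils, B cells, T and NK cells, monocytes and macrophages, and megakaryocytes were all above 0 in every group, and 7 markers of muscle, fat and bone summed to 1.43 to 11.9 TPM.

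Entpd4 encodes an enzyme of the Golgi and lysosome that cleaves nucleoside diphosphates such as UDP, the by-product left when a sugar is transferred to a protein or lipid. Entpd4b is annotated as a protein-coding gene of the same family. Slc25a37, which borders the stretch and is no member, encodes mitoferrin, the carrier that brings iron into the mitochondria of developing red blood cells for haem synthesis. The other 6 genes have only catalogue names. Gm16867 is annotated as protein-coding and Gm27177 as antisense. Gm20236, Gm37094, Gm38378 and Gm37513 carry the biotype TEC, which GENCODE gives to loci with transcript evidence that still await an experiment on whether they code for protein.

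The 8 genes were not 8 separate sequences. In the GENCODE M21 annotation of GRCm38, the build named mm10, Entpd4 lay at chr14:69337174-69367270 on the plus strand, and Entpd4b lay at chr14:69555424-69585520, exactly 218250 bp further on. Gm20236 (chr14:69277601-69282140, minus strand) and Gm37094 (chr14:69495851-69500390) were also 218250 bp apart, and Gm38378 (chr14:69395504-69397771) and Gm37513 (chr14:69613779-69616046) were 218275 bp apart. Gm16867 spanned chr14:69363504-69503362 on the minus strand, and its 5′ end lay 218250 bp from the 5′ end of Slc25a37. Gm27177 spanned chr14:69582164-69683286, on the minus strand. In the stretch with its borders, 11 pairs of annotated genes had a start or an end that was shifted by this distance within 100 bp, and 3 of these were pairs of members. Gm20236 lay in an intron of Slc25a37, Gm37094 and Gm38378 lay in introns of Gm16867, and Gm37513 lay in an intron of Gm27177, each on the strand of its host.

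**Figure D1:**
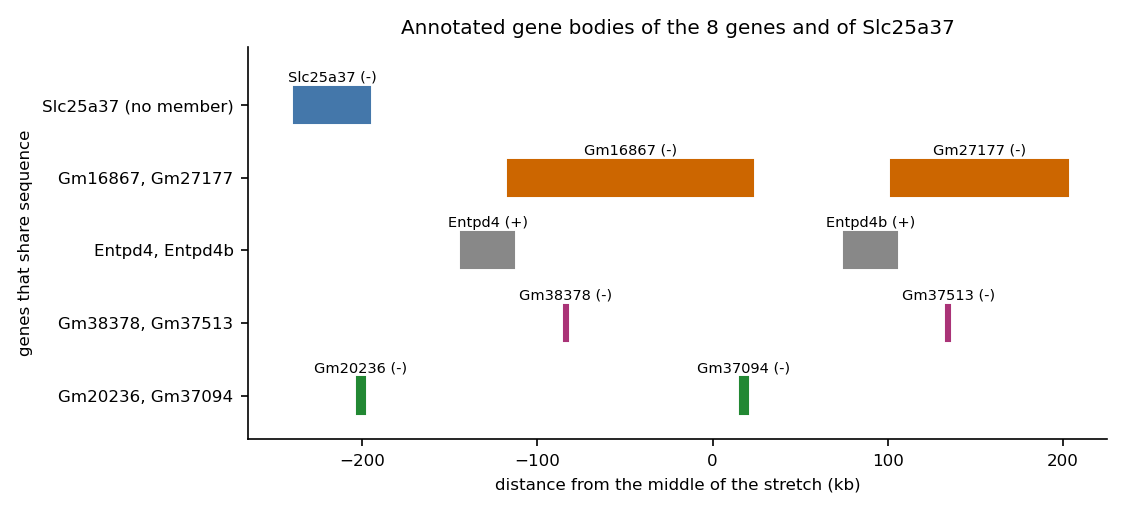
Bars show the annotated bodies of the 8 genes and of Slc25a37, with the strand in brackets, along the distance in kb from the middle of the stretch. Each row holds genes that share sequence. Entpd4 and Entpd4b, Gm20236 and Gm37094, and Gm38378 and Gm37513 repeat at the same spacing.

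The sequences below, from the GENCODE M21 transcripts of GRCm38, show which members can be told apart by their reads. In the lines of Slc25a37 and Gm16867, lower case is the coding end of exon 1 and capitals are the start of exon 2. In the line of Gm27177, capitals are its first bases.
Slc25a37-201: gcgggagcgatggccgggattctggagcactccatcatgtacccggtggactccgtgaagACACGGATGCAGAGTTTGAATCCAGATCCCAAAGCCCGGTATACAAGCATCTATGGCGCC
Gm16867-201: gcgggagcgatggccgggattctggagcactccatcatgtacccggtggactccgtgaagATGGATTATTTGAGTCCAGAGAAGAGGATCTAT
Gm16867-205: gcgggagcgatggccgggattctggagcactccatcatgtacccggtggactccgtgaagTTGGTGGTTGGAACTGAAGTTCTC
Gm16867-207: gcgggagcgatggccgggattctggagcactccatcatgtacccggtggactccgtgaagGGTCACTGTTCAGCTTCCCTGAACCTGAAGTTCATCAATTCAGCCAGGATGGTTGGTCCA
Gm27177-201: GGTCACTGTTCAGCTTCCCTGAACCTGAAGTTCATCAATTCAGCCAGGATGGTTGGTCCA

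Exon 1 of Gm16867-201 was identical to exon 1 of Slc25a37-201 over its 381 bases. In the Gm16867 transcripts printed above, exon 2 differed from that of Slc25a37-201. Another transcript of Gm16867 was identical to a transcript of Slc25a37 over its 342 bases, so its reads cannot be told from those of Slc25a37. Gm27177-201 was identical to Gm16867-207 without its exon 1, over 2946 bases. All 5 transcripts of Gm27177 were identical to a transcript of Gm16867 with or without its exon 1. Of the 7853 distinct stretches of 75 bases in the transcripts of Gm16867, 626 (7.97%) were in no other annotated gene read in the same direction. The opposite strand was not searched. Gm27177 had 0 of 6828 such stretches, which means that a read of that length from Gm27177 could also be placed on Gm16867.

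The first bases of the TEC genes, and the first coding bases of Entpd4 and Entpd4b with the start codon in capitals, show the identity within each pair.
Gm20236-201: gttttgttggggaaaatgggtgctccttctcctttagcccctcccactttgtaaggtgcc
Gm37094-201: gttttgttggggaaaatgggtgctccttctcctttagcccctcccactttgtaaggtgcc
Gm38378-201: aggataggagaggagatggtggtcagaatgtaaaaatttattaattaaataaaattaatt
Gm37513-201: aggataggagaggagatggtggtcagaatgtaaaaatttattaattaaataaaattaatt
Entpd4-206: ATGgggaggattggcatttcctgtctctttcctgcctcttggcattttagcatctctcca
Entpd4b-204: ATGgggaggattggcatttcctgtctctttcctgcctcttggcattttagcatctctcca

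The transcripts of Gm20236 and Gm37094 were identical over 4540 bases and those of Gm38378 and Gm37513 over 2268 bases. The TPM of each pair was also equal in all 24 libraries, so each pair is 1 measurement divided between 2 names. Of the 6 transcripts of Entpd4, 5 were identical to the 5 of Entpd4b, and no stretch of 75 bases was particular to either, so how their reads were shared between them rests on the estimate of RSEM. The exons of Gm16867 and Entpd4 overlapped by 2110 bp on opposite strands, and those of Gm27177 and Entpd4b by 1700 bp. The library kit was directional, but the strand setting of the counting is not given in the sources used here.

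Gm16867 was listed at 0 TPM in all 12 WT mice. The 6 GC-KO mice lay between 25.99 and 38.7 TPM, with a median of 34.9 TPM, and the 6 FL-KO mice lay between 16.7 and 22.9 TPM, with a median of 19.0 TPM. Every KO mouse was therefore apart from every WT mouse, and every FL-KO mouse was below every GC-KO mouse.

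Gm27177 was at 0 to 0.01 TPM in GC-WT and at 0 to 0.03 TPM in FL-WT mice. It lay between 15.7 and 38.0 TPM in GC-KO mice, with a median of 23.2 TPM, and between 6.86 and 18.3 TPM in FL-KO mice, with a median of 9.78 TPM. The genotypes did not overlap, whereas FL-KO mouse 11, the highest of its group, lay above GC-KO mouse 12. In KO mice Gm27177 held 42.8% ± 5.25 (SD, n = 6) of the summed TPM of Gm16867 and Gm27177 on the ground and 34.9% ± 8.92 (SD, n = 6) in flight. This share depends on how RSEM divided the reads that both genes could have given.

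The sum of Gm16867 and Gm27177 depends less on that division. It was 58.6 ± 13.5 TPM (SD, n = 6) in GC-KO mice, with a range of 41.9 to 75.5 TPM, and 30.3 ± 5.02 TPM (SD, n = 6) in FL-KO mice, with a range of 24.2 to 37.6 TPM. No FL-KO mouse reached the lowest GC-KO mouse.

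Gm38378, and with it Gm37513, was listed at 0 TPM in all 12 WT mice and was low in KO mice. It lay between 1.16 and 3.05 TPM in GC-KO mice, with a median of 1.58 TPM, and between 0.64 and 1.52 TPM in FL-KO mice, with a median of 0.79 TPM. KO and WT mice were apart, and the FL-KO and GC-KO ranges overlapped through FL-KO mouse 11.

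Gm20236, and with it Gm37094, was the only one of the raised sequences with RNA in WT mice. It lay between 3.67 and 8.09 TPM in GC-WT mice, with a median of 5.59 TPM, and between 1.31 and 2.08 TPM in FL-WT mice, with a median of 1.78 TPM. In KO mice it lay between 6.15 and 15.9 TPM on the ground, with a median of 11.3 TPM, and between 3.17 and 7.49 TPM in flight, with a median of 3.92 TPM. KO mice were above WT mice without overlap in flight, while on the ground 4 of 6 GC-KO mice were above the highest GC-WT mouse and the ranges overlapped.

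Entpd4 did not separate the genotypes. It lay between 0.80 and 1.39 TPM in GC-WT mice and between 1.15 and 1.66 TPM in GC-KO mice, with medians of 1.08 and 1.37 TPM. In flight it lay between 0.67 and 1.38 TPM in FL-WT and between 0.75 and 1.21 TPM in FL-KO mice, with medians of 0.84 and 0.905 TPM. The ranges overlapped in both places, and in flight no FL-KO mouse was above the highest FL-WT mouse.

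Entpd4b lay between 0.60 and 0.95 TPM in GC-WT mice and between 0.59 and 1.05 TPM in GC-KO mice. In flight it lay between 0.41 and 0.73 TPM in WT mice and between 0.48 and 0.77 TPM in KO mice, so all 4 groups overlapped. The sum of Entpd4 and Entpd4b, which depends less on the division of reads, had means of 1.86 ± 0.276 TPM in GC-WT against 2.15 ± 0.312 TPM in GC-KO mice, and in flight of 1.47 ± 0.400 TPM in WT against 1.59 ± 0.270 TPM in KO mice (SD, n = 6 each). In TPM as deposited, the Entpd4 pair thus did not separate the genotypes. On the log2(TPM + 1) scale used below, median-of-ratios scaling between libraries put both genes higher in KO mice, by 0.35 on the ground and 0.25 in flight for Entpd4 and by 0.13 and 0.25 for Entpd4b.

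**Figure D2:**
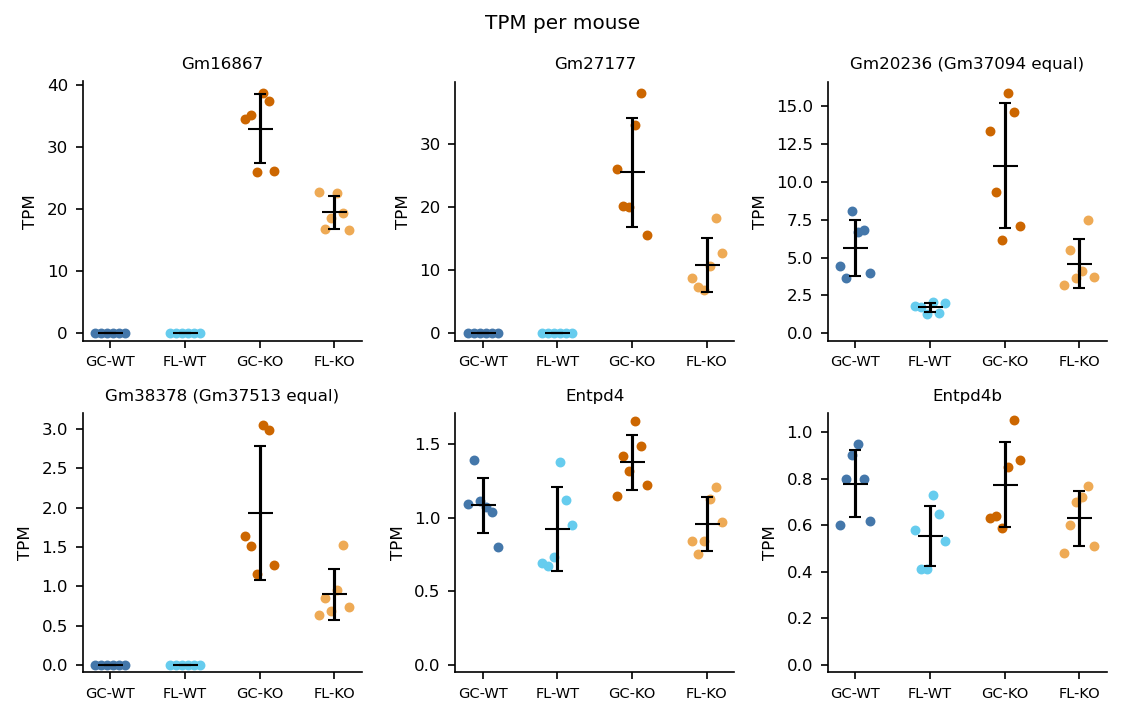
Each point is the TPM of a mouse in the 4 groups, and the bars are the mean ± SD of 6 mice; Gm37094 and Gm37513 are not drawn because they equal Gm20236 and Gm38378. Gm16867 and Gm38378 are at 0 in all 12 WT mice, Gm20236 is present in each group, and the groups of Entpd4 and Entpd4b overlap.

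Within GC-KO mice, the levels per length fell from Gm16867 and Gm27177, whose ranges overlapped, to Gm20236, Gm38378, Entpd4 and Entpd4b. The ranges of Gm20236 and Gm27177 overlapped only between 15.7 and 15.9 TPM, those of Gm38378 and Entpd4 overlapped, and those of Entpd4 and Entpd4b did not. These are values under single names, which depend on how RSEM divided the reads. Gm20236 and Gm37094 summed to 12.3 to 31.8 TPM in GC-KO mice, largely within the range of Gm27177. Gm38378 and Gm37513 summed to 2.32 to 6.10 TPM, above Entpd4 but overlapping the sum of Entpd4 and Entpd4b (1.78 to 2.54 TPM). In WT mice the order of the medians was Gm20236, Entpd4 and Entpd4b, with all others at or near 0. The ranges of Entpd4 and Entpd4b overlapped in GC-WT and FL-WT mice, and those of Gm20236 and Entpd4 in FL-WT mice. As a sum, Gm20236 and Gm37094 lay between 2.62 and 4.16 TPM in FL-WT mice, above Entpd4.

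For the genotype comparison, differences are KO minus WT of the group means of log2(TPM + 1), a scale on which the difference of low genes is smaller than that of their TPM. Genes were called in limma at an adjusted p under 0.1 (Benjamini-Hochberg, over the 12373 genes that exceeded 1 TPM in at least 1 library) together with a 2-fold or larger change on this scale. All 8 members passed that filter, but Gm16867, Gm27177, Gm38378 and Gm37513 passed it through KO mice alone, and Entpd4b through 1 GC-KO mouse at 1.05 TPM. On the ground 4 of 8 members were called higher, against 0.129% of all tested genes, and 4 of 8 did not overlap, against 0.218%. In flight 4 of 8 were again called higher, against 0.097%, and 6 of 8 did not overlap, against 0.307%. With median-of-ratios scaling 6 of 8 were called higher in both places, as Gm20236 and Gm37094 (1.11) passed the 2-fold limit on the ground and Gm38378 and Gm37513 (1.09) in flight. With this scaling 30 of the 12373 tested genes were called higher on the ground and 26 in flight. Gm20236 and Gm37094, and likewise Gm38378 and Gm37513, are 1 measurement but enter these counts of members as 2. Since the genotype contrast chose the members, these counts say only what was chosen.

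On the ground, the difference was 5.07 for Gm16867, 4.66 for Gm27177, 1.51 for Gm38378 and Gm37513, 0.84 for Gm20236 and Gm37094, 0.19 for Entpd4 and -0.0063 for Entpd4b. In flight, it was 4.35 for Gm16867, 3.47 for Gm27177, 1.01 for Gm20236 and Gm37094, 0.91 for Gm38378 and Gm37513, 0.072 for Entpd4b and 0.032 for Entpd4. In TPM as deposited, just outside the 2-fold limit were Gm20236 and Gm37094 on the ground and Gm38378 and Gm37513 in flight. Just inside it were Gm20236 and Gm37094 in flight. These are values under single names, and the division of each pair makes its difference on this scale smaller. As a sum, Gm38378 and Gm37513 differed by 2.21 on the ground and 1.45 in flight. The sum of Gm20236 and Gm37094 differed by 0.89 and 1.16. For the sequences listed at 0 in WT mice, the difference reflects the value of 1 added to TPM and is no fold change. The TPM ratio of Gm20236 could be given, and was 1.97 on the ground and 2.68 in flight. The median over the 8 members, with each equal pair counted as 2, was 1.17 on the ground and 0.96 in flight. Over all tested genes it was -0.22 and -0.25.

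Every gene called higher in KO mice on chromosome 14 was a member, which made 4 of the 16 genes called higher on the ground and 4 of the 12 in flight. These 4 hold the equal pair Gm38378 and Gm37513 on the ground, and the equal pair Gm20236 and Gm37094 in flight. Of the 67 other annotated genes in the table within 1 Mb of the stretch, 17 could be tested. None of the 17 was called by limma in either genotype comparison. At an unadjusted p under 0.05, none was higher and 10 were lower in each comparison, where 43.4% of all tested genes were lower on the ground and 47.3% in flight. With median-of-ratios scaling, 1 was higher and 4 were lower at that level on the ground, and 0 were higher and 8 lower in flight. With this scaling 27.5% of all tested genes were higher and 28.3% lower on the ground, and 30.4% and 32.1% in flight. In TPM as deposited, the median difference of the 17 neighbours was -0.32 on the ground and -0.42 in flight. With a pseudocount of 0.1, 1 of them was called lower on the ground and 3 in flight, beside 946 and 1984 of the 12373 tested genes. Slc25a37, the neighbour that shares exon 1 with Gm16867, lay between 127 and 320 TPM in GC-WT and between 137 and 274 TPM in GC-KO mice. In flight it lay between 69.02 and 125 TPM in FL-WT and between 67.8 and 107 TPM in FL-KO mice. Its ranges overlapped between the genotypes in both places, and its difference (-0.22 on the ground and -0.23 in flight, SE 0.19, limma adjusted p = 0.376 and 0.336) turned to 0.12 and 0.17 with median-of-ratios scaling.

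**Figure D3:**
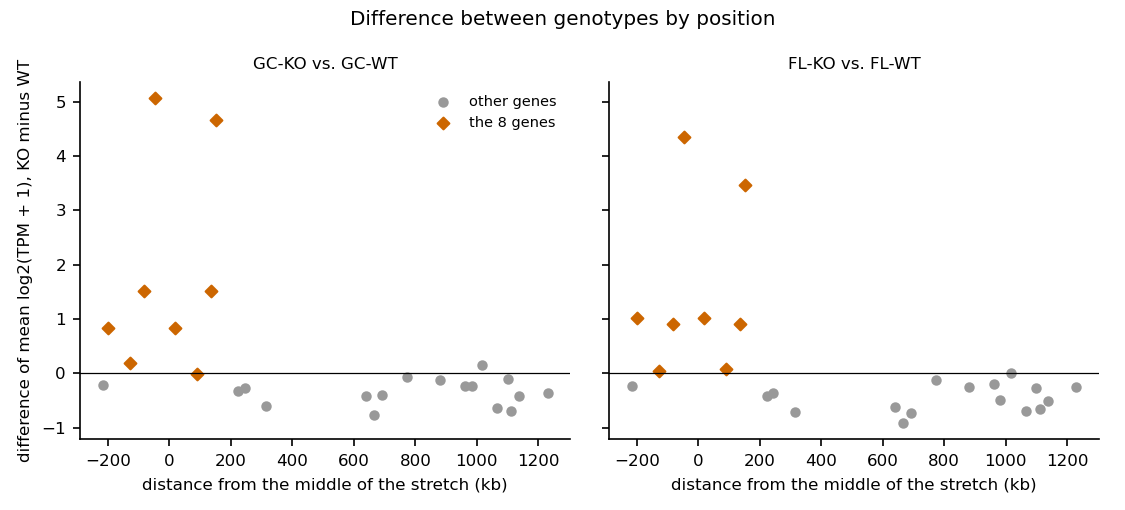
Each point is a tested gene, placed by the distance of its middle from the middle of the stretch in kb, with the KO minus WT difference of mean log2(TPM + 1) on the ground (left) and in flight (right). Diamonds are the 8 genes, 6 of which lie above 0.8 in each panel, and grey circles are the 17 other genes, the highest of which is at 0.16 on the ground and 0.0072 in flight.

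Set against Slc25a37 of the same mouse, the TPM of Gm16867 was 17.3% ± 2.30 (SD, n = 6) in GC-KO mice, with a range of 13.7% to 19.1%, and 23.9% ± 3.11 (SD, n = 6) in FL-KO mice, with a range of 18.1% to 27.4%. The ranges overlapped, and the difference of these shares was not tested. Gm20236, which lies in an intron of Slc25a37, was at 2.46% ± 0.397 of Slc25a37 in GC-WT and 5.61% ± 1.43 in GC-KO mice, and at 1.79% ± 0.398 in FL-WT and 5.63% ± 1.72 in FL-KO mice (SD, n = 6 each). By this share all 6 KO mice were above all 6 WT mice on the ground. The lowest GC-KO mouse was at 4.10% and the highest GC-WT mouse at 2.89%. The same held in flight, where these were 3.30% and 2.51%. The genotype contrast chose Gm20236, and how many of all tested genes separate in this way was not counted. Nothing is therefore read from this separation.

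**Figure D4:**
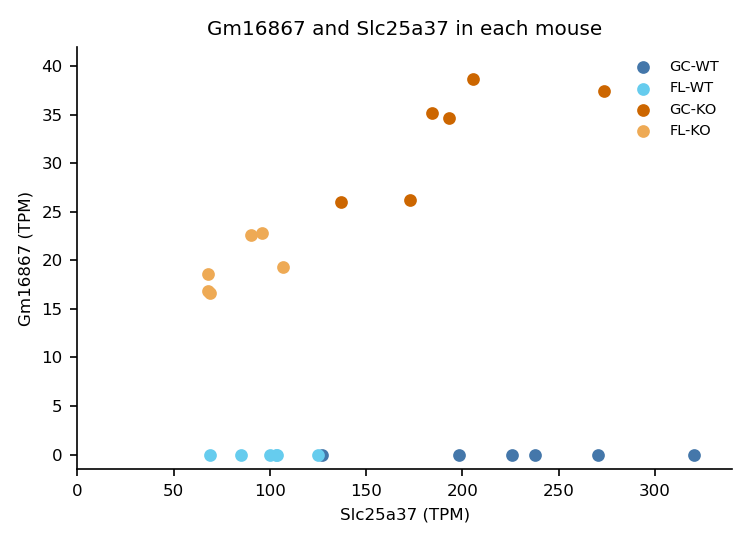
Each point is a mouse, with the TPM of Slc25a37 on the horizontal axis and that of Gm16867 on the vertical axis. The 12 WT mice lie at 0 for Gm16867 at every level of Slc25a37, and the 6 FL-KO mice lie to the lower left of the 6 GC-KO mice.

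Flight against ground asked whether the RNA of these sequences changed with spaceflight, in WT and in KO mice separately. In WT mice, the RNA of Gm20236 and Gm37094 fell in flight, and neither Entpd4 nor Entpd4b was called. Gm16867, Gm27177, Gm38378 and Gm37513 were at or near 0 TPM in WT mice and so could not be called lower there. In KO mice, Gm27177, Gm20236 and Gm37094 fell, and every member had a lower mean in FL-KO than in GC-KO mice in TPM as deposited, though not Entpd4b after median-of-ratios scaling. Called lower were 2 of 8 members in WT mice, against 0.938% of all tested genes, and 3 of 8 members in KO mice, against 2.13%. With Gm20236 and Gm37094 as 1 measurement, the counts came down to 1 and 2. The members at or near 0 in WT mice passed the filter through KO mice alone, whose values also chose the members. These counts are therefore a description, and nothing is read from their distance to the share of all tested genes.

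In FL-WT vs. GC-WT, the mean TPM of Gm20236 fell from 5.62 ± 1.83 to 1.72 ± 0.317 (SD, n = 6 each), without overlap, as for 4.19% of all tested genes that were lower. Its log2 difference was -1.25 (SE 0.21, limma adjusted p = 0.000165), against a median of -0.24 over all tested genes. Entpd4 differed by -0.12 (SE 0.10, limma adjusted p = 0.354) and Entpd4b by -0.20 (SE 0.093, limma adjusted p = 0.107). Gm16867, Gm38378 and Gm37513 were listed at 0 in both groups.

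In FL-KO vs. GC-KO, Gm27177 differed by -1.18 (SE 0.18, limma adjusted p = 4.82e-05) and Gm20236 by -1.08 (SE 0.21, limma adjusted p = 0.000417), and 5 of 6 FL-KO mice were below the lowest GC-KO mouse for each. Gm16867 differed by -0.73 (SE 0.10, limma adjusted p = 2.86e-05) and Gm38378 and Gm37513 by -0.60 (SE 0.13, limma adjusted p = 0.00153). These were under the 2-fold limit on log2(TPM + 1), which lessens the change of low genes. In TPM, the FL-KO mean was 0.590 of the GC-KO mean for Gm16867 and 0.463 for Gm38378 and Gm37513. Gm16867 was the only member without overlap, as 18.4% of all tested genes were in this direction. Entpd4 differed by -0.28 (SE 0.10, limma adjusted p = 0.0308) and Entpd4b by -0.12 (SE 0.093, limma adjusted p = 0.292), with a median of -0.29 over all tested genes. The SE in this fit is shared with WT mice, in which some members had no spread. A fit of the KO mice alone gave an SE of 0.24 for Gm27177 (limma adjusted p = 0.00203), 0.23 for Gm20236 (0.00276), 0.12 for Gm16867 (0.000775) and 0.17 for Gm38378 (0.0115).

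The size of these changes depended on the scaling between libraries. Median-of-ratios scaling brought the median of all tested genes from -0.24 to 0.025 in WT mice and from -0.29 to near 0 in KO mice. With it no member reached the 2-fold limit on log2(TPM + 1), a scale that lessens the change of low genes. In TPM as deposited, the flight mean of Gm20236 was 0.305 of the ground mean in WT mice and 0.416 in KO mice. Such ratios were not taken after scaling. With median-of-ratios scaling, the difference of Gm20236 was -0.92 in WT mice (limma adjusted p = 0.00153) and -0.70 in KO mice (limma adjusted p = 0.00969). That of Gm27177 was -0.76 (limma adjusted p = 0.000789). The difference of Gm16867 was -0.29 (limma adjusted p = 0.0391), while the differences of Entpd4 in WT mice and Entpd4b in KO mice turned to 0.051 and 0.075. With GC-KO mouse 9, GC-KO mouse 11 or FL-KO mouse 1 left out, Gm20236 and Gm37094 missed the 2-fold limit in KO mice and 1 of 8 members was called.

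**Figure D5:**
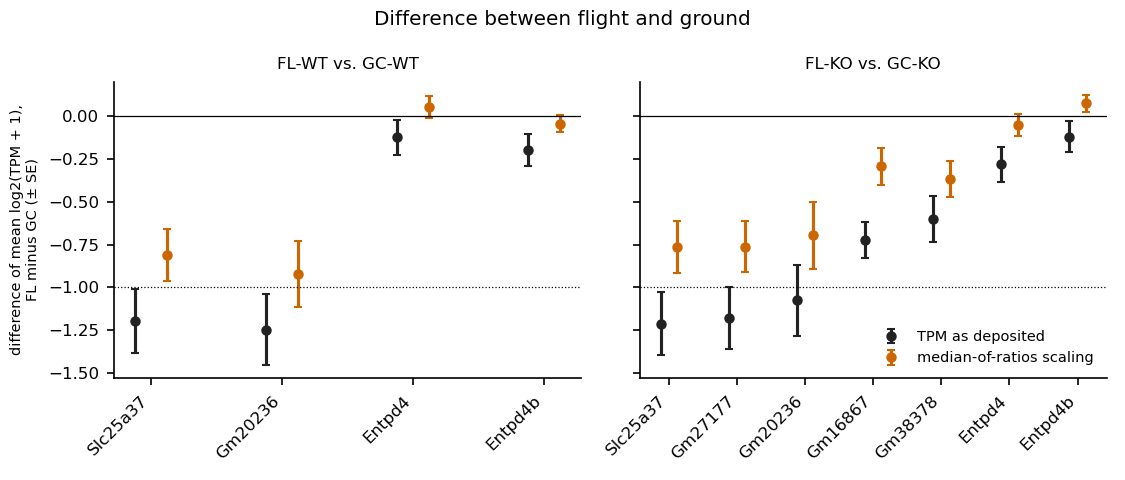
Points are the differences of mean log2(TPM + 1), FL minus GC, in WT (left) and KO (right) mice, with bars of ± SE, for TPM as deposited (black) and after median-of-ratios scaling (orange). The dotted line at -1 is the 2-fold limit. All orange points lie above it, and the points of Entpd4 and Entpd4b lie near 0.

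Slc25a37 moved with flight to a like extent, by -1.20 in WT mice (SE 0.19, limma adjusted p = 8.86e-05) and -1.21 in KO mice (SE 0.19, limma adjusted p = 4.65e-05), and by -0.81 and -0.77 after median-of-ratios scaling. Of the 17 tested neighbours, 3 were called lower in each flight comparison, against the 0.938% and 2.13% of all tested genes given above, and 0 with median-of-ratios scaling. With quantile normalization 3 were called lower in WT mice and 0 in KO mice, beside 32 and 25 of the 12373 tested genes. In TPM as deposited, the neighbours called besides Slc25a37 were Dmtn, which encodes a protein of the red cell membrane skeleton, and Xpo7, a nuclear export receptor. After median-of-ratios scaling Dmtn differed by -0.89 in WT and -0.94 in KO mice and Xpo7 by -0.87 and -0.71, short of the 2-fold limit. The summed TPM of the erythroid markers Slc4a1 and Alas2 lay between 603 and 1360 in GC-WT mice and between 544 and 944 in FL-WT mice, and between 868 and 1487 in GC-KO against 519 and 867 in FL-KO mice. Of the 6 erythroid markers used, which also hold 4 haemoglobin genes, 1, Slc4a1, was called lower in each flight comparison, and none was at 0 in any group. In WT mice 4 of the 6 had a flight difference above 0 and the median of the list was 0.059, beside -0.24 over all tested genes, while in KO mice all 6 lay below 0, with a median of -0.14 beside -0.29. Their part in the fall of the members was not tested, and in marrow as a whole fewer cells of a type and less RNA in each cell cannot be told apart.

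The interaction asks whether the difference between flight and ground was unlike in KO and WT mice. No member was called by limma, with or without a trend, against 0.0162% of all tested genes called lower, and 4 members had an unadjusted p under 0.05, all lower, as had 3.03% of all tested genes. The lowest adjusted p were 0.138 for Gm16867 (-0.73, SE 0.15) and 0.188 for Gm27177 (-1.19, SE 0.26). As both had no or hardly any RNA in WT mice, this interaction is their difference within KO mice. Without GC-KO mouse 12 or without FL-KO mouse 11, Gm27177 was called, with 1 of 8 members in each case. For Gm20236 and Gm37094, which had RNA in each group, the interaction was 0.17 (SE 0.29, limma adjusted p = 1.0).

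The pathway of Entpd4 was read from 30 genes for nucleotide and nucleotide sugar turnover, 24 of which could be tested. Of the 4 tested members of the E-NTPDase family other than Entpd4 and Entpd4b (Entpd1, Entpd5, Entpd6 and Entpd7), none was called in any comparison, and all 4 had lower means in KO mice in TPM as deposited and after median-of-ratios scaling. With a pseudocount of 0.1, Entpd7 was called lower in KO mice, by -1.15 on the ground (limma adjusted p = 0.000921) and -1.30 in flight (limma adjusted p = 1.46e-05). With that pseudocount 946 and 1984 of the 12373 tested genes were called lower. On log2(TPM + 1), 1 of the 24 genes was called in each genotype comparison, lower in KO mice, against 3.04% of all tested genes called lower on the ground and 8.36% in flight. This was Slc35c1, the carrier that brings GDP-fucose into the Golgi. It lay between 6.34 and 12.8 TPM in GC-WT mice and between 2.93 and 7.11 TPM in GC-KO mice. In flight it lay between 5.43 and 14.96 TPM in WT mice and between 1.56 and 2.79 TPM in KO mice. Its ranges overlapped on the ground and not in flight. The share of all tested genes that lay lower in FL-KO than in FL-WT mice without overlap is not given here. Nothing is therefore read from this separation. The difference of Slc35c1 was -1.01 on the ground (SE 0.21, limma adjusted p = 0.000726) and -1.61 in flight (SE 0.21, limma adjusted p = 1.85e-06). On the ground it missed the 2-fold limit with median-of-ratios scaling (-0.71, limma adjusted p = 0.00091), and when GC-WT mouse 6, 7 or 8 or GC-KO mouse 1, 2, 4 or 9 was left out.

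The 2 most abundant genes of the list that were not called were Slc35a4, a member of the nucleotide sugar carrier family, and Ugp2, which makes UDP-glucose. Slc35a4 had means of 18.1 ± 5.55 TPM in GC-WT against 9.63 ± 1.76 TPM in GC-KO mice, and of 13.4 ± 3.74 TPM in FL-WT against 6.46 ± 2.26 TPM in FL-KO mice. Those of Ugp2 were 15.8 ± 1.79, 15.2 ± 2.90, 17.3 ± 5.30 and 14.6 ± 2.31 TPM in the same order (SD, n = 6 each). None of the 24 genes was called by limma, with or without a trend, in either flight comparison, and 4 in WT and 9 in KO mice were lower at an unadjusted p under 0.05, where 41.7% and 52.2% of all tested genes were lower. The direction turned with median-of-ratios scaling, after which 12 were higher and 0 lower at that level in WT mice, and 10 higher and 1 lower in KO mice. With this scaling 22.9% of all tested genes were higher and 15.6% lower in WT mice, and 20.6% and 21.6% in KO mice. The median of the list was -0.30 on the ground and -0.36 in flight for the genotypes, and -0.15 in WT and -0.22 in KO mice for flight, beside -0.22, -0.25, -0.24 and -0.29 over all tested genes.

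Among 10416 genes, those whose log2(TPM + 1) over the 24 libraries was most like the mean of the standardized members were Cyp4b1-ps2 (Pearson r = 0.89), Sec61g (r = 0.84), Klk1 (r = 0.83), Sh3yl1 (r = 0.83) and Isg15 (r = 0.82). The 24 points fall into 4 groups and share their libraries, so these values are a description. None of the 5 is on chromosome 14, and none was absent in WT mice. Cyp4b1-ps2, an unprocessed pseudogene, had means of 10.8 ± 2.52 TPM in GC-WT against 20.2 ± 3.79 TPM in GC-KO mice, and of 6.997 ± 1.70 TPM in FL-WT against 10.9 ± 1.83 TPM in FL-KO mice. Klk1, a kallikrein protease, had means of 3.398 ± 1.39, 9.57 ± 1.15, 2.80 ± 0.738 and 6.54 ± 0.771 TPM in the same order (SD, n = 6 each).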

How the data were processed

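Bone marrow RNA of 24 mice was measured by RNA-seq. According to the methods of the study and the submitters' processing notes, the authors aligned the reads with STAR 2.6.1 (build mm10) and quantified transcripts with RSEM 1.3.1, and the deposited table gives their TPM, which sum to 999999.5 to 1000001.1 in each library. RSEM divides reads that several transcripts could have given by a model, so the values of genes with identical sequence are shares of a sum. Of 54752 genes, 26504 were at 0 everywhere. Identifiers without their version matched GENCODE M21 for 54723 genes.

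Groups came from the sample labels. The 12373 genes with a TPM above 1 in at least 1 library were tested on log2(TPM + 1) in R 4.3.3 with limma 3.58.1, fitting 1 mean for each group over the 24 libraries together. Calls needed a Benjamini-Hochberg adjusted p below 0.1 and at least a 2-fold change. The flight and genotype comparisons share groups, and were not compared with each other. Tables and plots were made in Python 3.11.15 with numpy 2.4.6, pandas 2.3.3 and matplotlib 3.10.9. The limma fit was tested on simulated data with normal noise, for FL-KO vs. GC-KO, with changes set only in genes of high level and small spread. The other steps were not tested in this way.

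The members and lists were chosen with earlier results of these data known. Named were the members, Nfe2l2, Slc25a37 and any neighbour called between genotypes, pathway genes called in any comparison, the 2 most abundant pathway genes not called, and the 5 genes most like the members with a mean of at least 1 TPM; Dmtn, Xpo7 and Slc4a1 were added after their values were seen. An erythroid marker of the list is not reported here. Alternatives were a pseudocount of 0.1, other filters, median-of-ratios scaling, quantile normalization, a limma trend, fits to only the 2 groups compared, a block for the mouse number, and leaving out 1 library at a time. Where nothing says that mice came from separate litters, p-values measure the spread between these mice.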

Additional observations from a re-analysis of the deposited data

Results flagged for a closer look

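In a test for a sample far from the others of its group, 4 of 26 groups with any spread were marked, at a level where chance marks about 1 in 20. Gm38378 and its equal Gm37513, as 1 measurement, were highest in FL-KO mouse 11, at 1.52 TPM. The same mouse was the highest of its group for Gm27177, Gm20236 and Slc25a37. Gm27177 was marked at 0.01 TPM in GC-WT mouse 8 and at 0.03 TPM in FL-WT mouse 7, which are values next to 0. No difference of a member between KO and WT mice in its response to flight passed the threshold, so none was marked for it.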

How the results depend on the processing

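Which of these results hold depends mostly on scaling and on the value added to TPM. With median-of-ratios scaling or quantile normalization, 0 members were called lower in flight in WT mice and 0 in KO mice; the 2-fold limit was missed, while the adjusted p of Gm20236, Gm37094 and Gm27177 stayed at or below 0.0133. Not called in TPM as deposited, the flight difference of Entpd4 turned to 0.051 (median-of-ratios) and 0.093 (quantile) in WT mice and to 0.0064 (quantile) in KO mice, and that of Entpd4b turned to 0.029 (quantile) in WT mice and to 0.075 (median-of-ratios) and 0.13 (quantile) in KO mice. The median member difference in GC-KO vs. GC-WT was 2.59 with a pseudocount of 0.1, 1.51 with a TPM above 1 in at least 6 libraries, which drops Entpd4b, and 1.51 with Entpd4 and Entpd4b summed. In FL-KO vs. FL-WT it was 2.30 with a pseudocount of 0.1, 1.22 after median-of-ratios scaling and 1.28 after quantile normalization. With a pseudocount of 0.1, neighbours called were 1 on the ground and 3 in flight between genotypes, pathway genes called were 3 and 7, and 1 pathway gene was called in FL-KO vs. GC-KO. All of these were called lower. Of the 12373 tested genes, 946 on the ground and 1984 in flight were then called lower between genotypes, and 925 in FL-KO vs. GC-KO. Pathway genes called in GC-KO vs. GC-WT were 0 with median-of-ratios scaling or quantile normalization. With each library left out in turn, members called ranged from 2 to 2 for flight in WT mice, 1 to 3 for flight in KO mice and 0 to 1 in the interaction. The median member difference ranged from 1.06 to 1.28 in GC-KO vs. GC-WT and from 0.85 to 1.02 in FL-KO vs. FL-WT. Neighbours called ranged from 0 to 0 on the ground and 0 to 1 in flight, the 1 without FL-WT mouse 5, and pathway genes called from 0 to 1 on the ground and 1 to 3 in flight between genotypes, with 2 or 3 without FL-WT mouse 5, 6 or 10 or FL-KO mouse 9, 11 or 12. In the flight comparisons pathway genes called ranged from 0 to 0. The causes of these changes were not tested. Mouse numbers are shared between flight and ground, but 7 of 12 same-numbered pairs had correlated deviations above 0.1 (range -0.03 to 0.27) and 3 pairs matched best, so the numbers were not taken as pairing. With the mouse number as a replicate block, members called for flight were 2 in WT mice and 3 in KO mice. Depth is unknown, so a value of 0 TPM has no upper limit here.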

Other observations

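Other annotated genes of the repeated stretch stayed below the filter and were not tested, and their values, looked up after those of the members were seen, are given as listed. Gm27221 and Gm27176, a pair with identical transcripts and TPM, were at 0 TPM in all 12 WT mice, at 0.09 to 0.22 TPM in GC-KO and at 0.04 to 0.19 TPM in FL-KO mice. Gm31748 and Gm37847, equal to each other in the same way, lay at 0.10 to 0.30 TPM in GC-WT and 0.44 to 0.71 TPM in GC-KO mice, and at 0.10 to 0.15 TPM in FL-WT and 0.18 to 0.32 TPM in FL-KO mice. KO mice were above WT mice without overlap for both pairs, on the ground and in flight. Of the tested genes, which do not include these, 0.218% and 0.307% did so. On opposite strands, exons of Gm37847 and Gm16867 overlapped by 381 bp, and those of Gm21451 and Gm16867 by 301 bp. Exons of Gm27221 and Entpd4 overlapped by 348 bp, as did those of Gm27176 and Entpd4b. The strand setting of the counting is not known, and whether reads of the members entered these low values was not tested. Gm21451 was at 0 to 0.02 TPM in WT mice, 0.10 to 0.23 TPM in GC-KO and 0 to 0.07 TPM in FL-KO mice. The genotypes overlapped for Loxl2, a lysyl oxidase, and for Synb, a syncytin, which stayed at or below 0.19 TPM and 0.14 TPM in all 24 mice. They also overlapped for Gm27179, at 0 to 0.11 TPM in GC-WT and 0 to 0.04 TPM in GC-KO mice, with the higher mean in WT mice. Gm16677, Gm27174 and Gm27222 stayed at or below 0.08 TPM and overlapped too, and Gm27223 and Gm27175 were at 0 in all 24 mice.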
